A study of Homo sapiens with 4 samples.

Results

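The genes described here encode aminoacyl-tRNA synthetases, the enzymes that join each amino acid to its transfer RNA. They were chosen by name: 19 genes for cytosolic enzymes and 16 for mitochondrial enzymes, so 35 of the 60675 genes in the annotation. RNA-seq counts were available for 4 libraries of LNCaP, an established androgen-responsive line from a lymph node metastasis of prostate cancer. Both groups were grown in phenol red-free medium with hormone-depleted serum and were given the synthetic androgen R1881 at 1 nM for 72 h, together with vehicle in 2 libraries and with 50 µM CPI-455 in the other 2. CPI-455 is an inhibitor of the KDM5 family of demethylases, which remove methyl groups from lysine 4 of histone H3. The comparison asks how these genes differ when a KDM5 inhibitor is added to androgen-treated cells. The cells are of a single line. The methods call the replicates biological without saying what set them apart, and the p-values measure the spread between these libraries.

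A synthetase is specific for its amino acid, and the charged tRNA it makes is what the ribosome reads. Cytosolic and mitochondrial translation use largely separate sets of enzymes, and the mitochondrial set is encoded in the nucleus, translated in the cytosol and imported. Cytosolic synthetases for several amino acids sit together in the multi-synthetase complex, held by scaffold proteins. When uncharged tRNA builds up, the kinase GCN2 raises translation of the transcription factor ATF4, and many cytosolic synthetase genes are known ATF4 targets.

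The amino acid response element, the site that ATF4 and its partners bind, was looked for in RefSeq promoter windows on GRCh38.p14, from 250 bases before to 50 bases after each start site. Of the 35 genes, 30 had a window. The letters TGATGNAA, read on both strands, were found in 7 of the 16 cytosolic genes with a window and in 1 of the 14 mitochondrial genes (YARS2). They were in 4.46% of all 27305 genes with a window and in 3.62% of all 35116 windows. The 7 cytosolic stretches are shown because such sites are the known link between synthetase genes and amino acid supply. Each is written 5′ to 3′ on the strand of its gene, with the matching bases in capitals.
CARS1, chr11:3057408-3057435, minus strand: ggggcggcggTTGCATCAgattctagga
MARS1, chr12:57488054-57488081, plus strand: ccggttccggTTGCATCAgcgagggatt
AARS1, chr16:70289676-70289703, minus strand: tttctcgcagTTGCATCAgccaagttag
IARS1, chr9:92293693-92293720, minus strand: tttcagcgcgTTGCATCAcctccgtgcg
TARS1, chr5:33440957-33440984, plus strand: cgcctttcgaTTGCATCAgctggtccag
GARS1, chr7:30594835-30594862, plus strand: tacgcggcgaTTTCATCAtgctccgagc
NARS1, chr18:57621805-57621832, minus strand: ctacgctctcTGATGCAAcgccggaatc
A match to these letters is a description of the sequence and does not show that a factor binds there.

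The libraries held 19623553 and 20690819 fragments assigned to genes with vehicle, and 9522920 and 5401588 with CPI-455. A single fragment was therefore worth 0.0473 and 0.0458 normalized CPM (counts scaled to library size) with vehicle against 0.112 and 0.198 CPM with CPI-455, and low values are less precise in the CPI-455 libraries. The groups also differed in makeup: MALAT1, a nuclear noncoding RNA, took 0.114% and 0.0884% of the counts with vehicle against 4.95% and 6.49% with CPI-455, and genes of the mitochondrial genome took 1.91% to 2.43% and 0.967% to 1.24%. All 9 luminal prostate markers had at least 10 counts in every library, with summed levels of 883 to 957 CPM with vehicle against 383 to 438 CPM with CPI-455. Of 10 markers of basal, stromal, immune and endothelial cells, 1 (COL1A1) reached 10 counts in every library and KRT5 was at 0 in each. Their sums were 6.09 to 6.39 CPM with vehicle against 8.92 to 11.6 CPM with CPI-455. The part of these differences in the results below was not tested, and in bulk libraries a change in the kinds of cells present and a change in RNA per cell cannot be told apart.

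All 35 synthetase genes were expressed well enough to be tested, among 17600 genes in all. Levels per length, as reads per kilobase and per unit of library size (RPKM), were higher in the cytosolic set: mean levels with vehicle ran from 7.46 to 148 RPKM (median 34.7) for cytosolic and from 0.772 to 42.6 RPKM (median 9.13) for mitochondrial genes. With CPI-455 the ranges were 11.3 to 173 RPKM (median 39.4) and 3.16 to 27.6 RPKM (median 7.44). The highest level with vehicle was that of IARS1, the isoleucine enzyme, at 139 and 157 RPKM in the 2 libraries, followed by SARS1, the serine enzyme, at 99.6 and 112 RPKM. With CPI-455 this order was turned, with SARS1 at 168 and 179 RPKM and IARS1 at 107 and 104 RPKM. The lowest was SARS2, the mitochondrial serine enzyme, at 0.850 and 0.694 RPKM with vehicle.

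**Figure D1:**
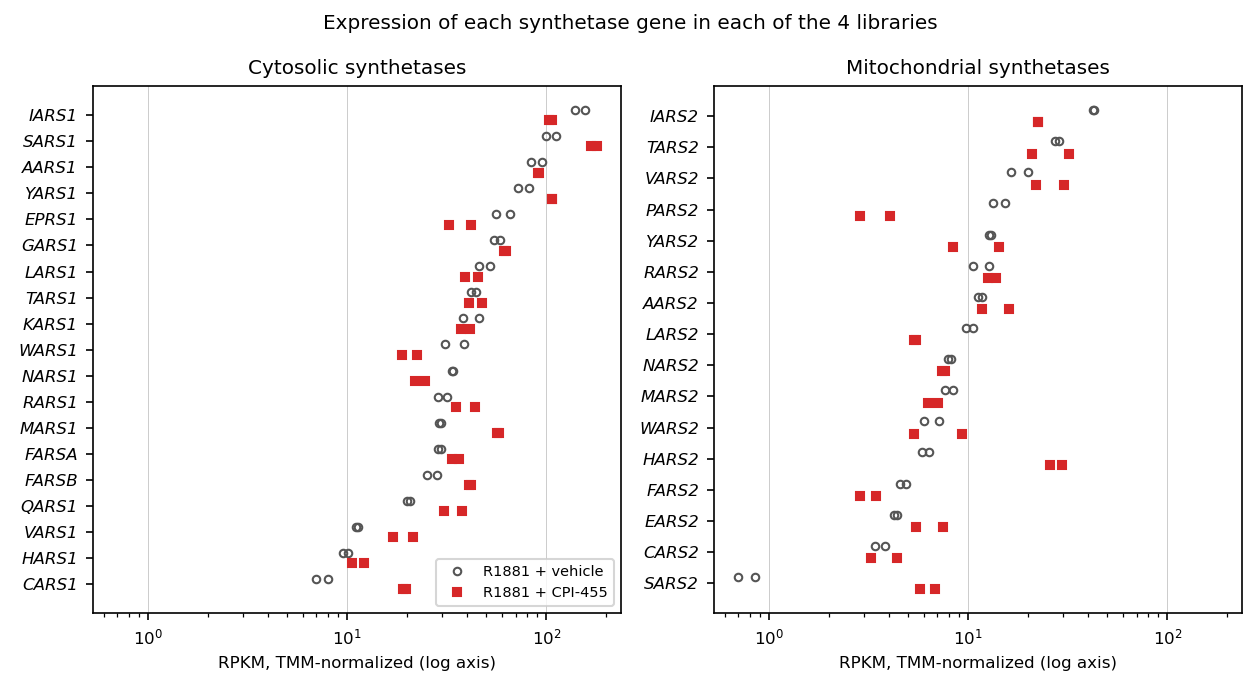
Level of each synthetase gene in each library, in TMM-normalized RPKM on a log axis, with genes ordered by their mean with vehicle (open circles, 2 libraries; filled squares, 2 CPI-455 libraries). Most pairs of groups lie close together; CARS1, HARS2 and SARS2 lie to the right with CPI-455 and PARS2 to the left.

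Summed over the 19 cytosolic genes, the level was 4774 and 5336 CPM with vehicle against 5436 and 5551 CPM with CPI-455. Summed over the 16 mitochondrial genes it was 824 and 796 CPM with vehicle against 901 and 790 CPM with CPI-455. The mitochondrial sums overlapped between the groups, and the cytosolic sums were separated by less than the gap between the vehicle libraries. With 2 libraries against 2, an exact two-sided permutation test cannot give a p below 0.333, so that test cannot reach 0.05 for these sums.

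Few synthetase genes changed by 2-fold or more. Changes were called at a Benjamini-Hochberg false discovery rate (FDR) below 0.05 and at least 2-fold in edgeR's quasi-likelihood test, and log2 fold changes are CPI-455 over vehicle, so that positive values are higher with CPI-455. By this rule 4 of the 35 genes (11.4%) were called, against a background of 42.4% of all genes tested and 39% of the protein-coding genes in the same range of level. HARS2, SARS2 and CARS1 rose (3 of 35; background 21% of all genes), and PARS2 fell (1 of 35; background 21.3%). The 4 calls held in every alternative fit that was run.

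At the FDR alone, 19 of the 35 genes changed (54.3%), against 62.6% of all genes tested. The share was 71.2% of the protein-coding genes in the same range of level (3003 higher and 4467 lower of 10498). Of the 19 synthetase genes, 12 were higher with CPI-455 (12 of 35, background 29.8% of all genes) and 7 lower (7 of 35, background 32.8%). The median absolute log2 fold change was 0.49 over the 35 genes, 0.95 over all genes and 0.79 over protein-coding genes in the same range of level. The median signed value was 0.13 for the synthetases, −0.040 for all genes and −0.21 for protein-coding genes.

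**Figure D2:**
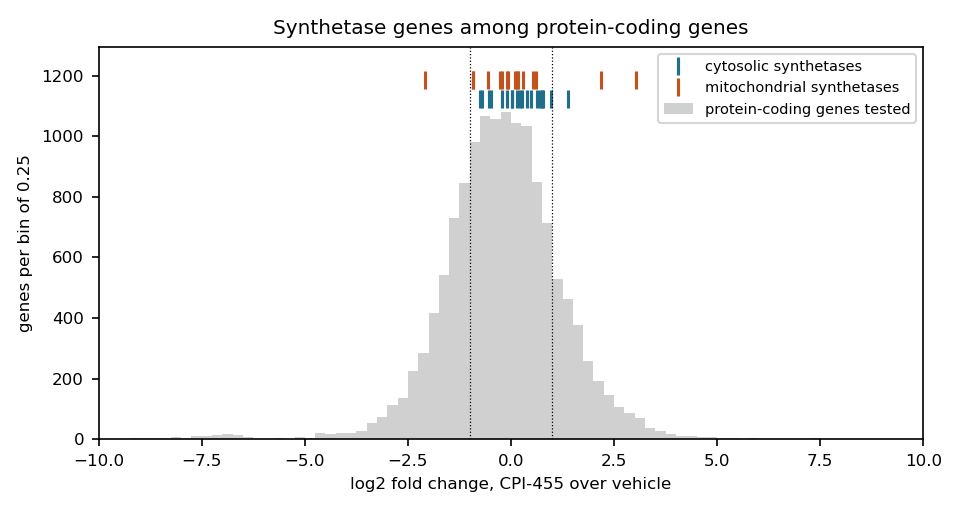
Log2 fold changes (CPI-455 over vehicle) of the protein-coding genes tested, as a histogram in bins of 0.25, with each synthetase gene as a tick above it; dotted lines mark 2-fold. All but 4 synthetase ticks stand between the lines.

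In the cytosolic set, 8 of 19 genes were higher and 4 lower at the FDR (background 29.8% and 32.8% of all genes). The median log2 fold change was 0.22 in a range from −0.75 to 1.38. Only CARS1 was called (5.26% of the set, background 42.4%), and none was called lower. CARS1 encodes the cysteine enzyme (ENSG00000110619, chromosome 11, 3000922 to 3057613, minus strand, GRCh38, 20 merged exon blocks). Its counts were 1471 and 1749 with vehicle against 1768 and 962 with CPI-455, which is 74.9 ± 7.38 and 195 ± 5.70 CPM (mean ± SD, n = 2 libraries, as for all CPM values below). Both CPI-455 libraries stood above both vehicle libraries, by a log2 fold change of 1.38 ± 0.12 (SE; FDR 1.24e-05).

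MARS1, the methionine enzyme, stood next and just under the 2-fold limit. Its counts were 4281 and 4554 with vehicle against 3536 and 2046 with CPI-455, or 206 ± 4.13 and 402 ± 5.70 CPM. Its log2 fold change was 0.97 ± 0.10 (FDR 4.24e-05), and it passed 2-fold with upper-quartile normalization (1.14), with a filter of 10 counts in every library (1.01) and once a trend on exon length and GC was taken out (1.30). The gene shares 13.3% of its exon bases with ARHGAP9, ENSG00000275657 and DDIT3, which encodes the stress transcription factor CHOP and lies tail to tail with it. ARHGAP9 had 10 and 9 counts with vehicle against 0 and 1 with CPI-455. DDIT3 had 545 and 657 counts with vehicle against 2433 and 1084 with CPI-455. Strand was not used in the counting and fragments on more than 1 gene were left out, and the part of these overlaps in the MARS1 value was not tested.

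The other cytosolic genes that were higher at the FDR moved by less. VARS1, the valine enzyme, had 1428 and 1504 counts with vehicle against 1160 and 518 with CPI-455, a log2 fold change of 0.78 ± 0.14 (FDR 0.00103). QARS1, SARS1 and FARSB, which serve glutamine, serine and, as the beta subunit, phenylalanine, had 0.76, 0.71 and 0.63. YARS1 (tyrosine; 12472 and 14622 counts, then 7765 and 4434) had 0.48 and RARS1 (arginine) 0.38. SARS1 counts were 8067 and 9381 with vehicle against 5718 and 3470 with CPI-455, so 406 ± 33.7 and 666 ± 31.9 CPM. The RARS1 change was the least sure, with an FDR of 0.0326 that rose as high as 0.304 when a library was left out and was 0.227 with library totals alone and 0.236 with no filter. YARS1 reached 0.0860 without vehicle replicate 1.

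WARS1, EPRS1, NARS1 and IARS1 were lower at the FDR. WARS1, the tryptophan enzyme, had 4145 and 5353 counts with vehicle against 1259 and 607 with CPI-455, or 221 ± 34.6 and 131 ± 15.0 CPM (log2 fold change −0.75 ± 0.14, FDR 0.00146), with 10.6% of its exon bases shared with other genes. EPRS1, a single chain that charges both glutamate and proline, had 6400 and 7780 counts and then 1564 and 1152, or 330 ± 37.6 and 202 ± 37.2 CPM (−0.71 ± 0.15, FDR 0.00232). NARS1, the asparagine enzyme, had 2901 and 3020 counts and then 888 and 450 (−0.54 ± 0.12, FDR 0.00313). IARS1 had 21749 and 25313 counts and then 7032 and 3865, the highest counts of the family with vehicle (−0.49 ± 0.11, FDR 0.00307). In each of these the CPI-455 libraries lay below both vehicle libraries in CPM. Once a trend on exon length and GC was taken out of each library, EPRS1, NARS1 and IARS1 no longer passed (FDR 0.224, 0.379 and 0.772) and the sign of IARS1 turned, while WARS1 did at a log2 fold change of −0.40 (FDR 0.0234). In that fit 12 cytosolic genes were higher at the FDR and 1 lower. The median log2 fold change over all genes was 0.082 in it, against −0.040 in the main fit. Of the 17566 genes in it, 3774 were called higher and 3024 lower at the FDR and 2-fold. The share of all genes at the FDR alone is not given for that fit.

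**Figure D3:**
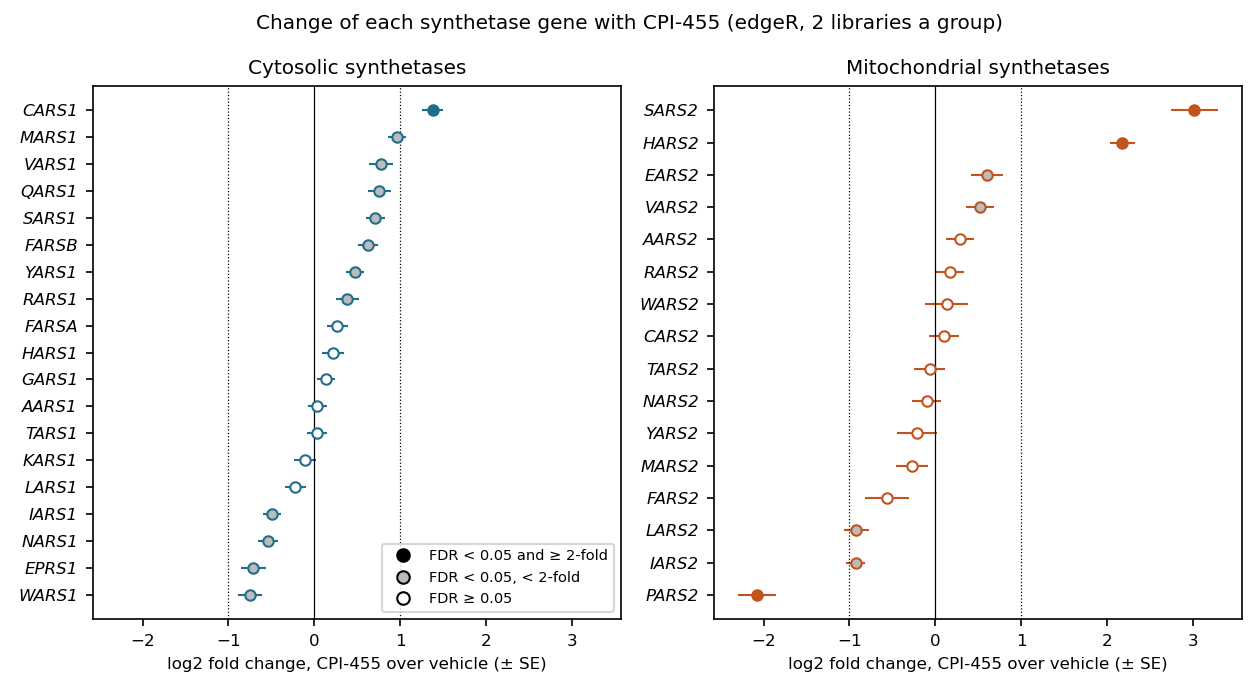
Log2 fold change (CPI-455 over vehicle, ± SE) of each cytosolic and mitochondrial synthetase gene from edgeR, with 2 libraries a group; filled points passed the FDR and 2-fold, grey points passed the FDR alone, open points passed neither, and dotted lines mark 2-fold. SARS2 at 3.02, HARS2 at 2.18, CARS1 at 1.38 and PARS2 at −2.08 are outside the lines.

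The remaining 7 cytosolic genes did not pass the FDR, with log2 fold changes from −0.22 (LARS1, leucine) to 0.27 (FARSA, the alpha subunit for phenylalanine). AARS1, TARS1, GARS1 and KARS1, for alanine, threonine, glycine and lysine, had 0.034, 0.031, 0.13 and −0.11. TARS1 had 5055 and 5552 counts with vehicle against 2074 and 1370 with CPI-455. GARS1 and KARS1 each also supply the mitochondrial enzyme for their amino acid from the same gene. HARS1, the histidine enzyme, had 0.22 ± 0.13 (FDR 0.158). Some of these genes passed in other fits: HARS1 (0.61, FDR 0.00117), GARS1 (0.50), TARS1 (0.50) and LARS1 (0.37, FDR 0.0215) were higher with the length and GC trend taken out. HARS1, GARS1 and FARSA were higher with upper-quartile scaling, and LARS1 was lower with library totals (−0.41, FDR 0.0126). AARS1, GARS1, KARS1, LARS1 and TARS1 changed sign under at least 1 normalization or trend correction, so no direction is given for them.

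Genes of the multi-synthetase complex did not move together in the main fit. Of the 7 in the list, QARS1, MARS1 and RARS1 were higher and EPRS1 and IARS1 lower at the FDR (background 29.8% and 32.8%). None was called (background 42.4%), and the median log2 fold change was −0.11. With the length and GC trend removed, EPRS1 (−0.22) and IARS1 (0.041) did not pass. LARS1 (0.37, FDR 0.0215) was then higher along with QARS1, MARS1 and RARS1, and KARS1 (0.21) did not pass. In the main fit the 12 cytosolic genes outside the complex had a median of 0.24, with 5 higher and 2 lower at the FDR. The 3 scaffold genes were all higher at the FDR (background 29.8% of all genes). AIMP1 rose from 67.4 ± 6.01 to 144 ± 9.69 CPM and passed 2-fold (1.09 ± 0.13, FDR 6.14e-05), and EEF1E1 and AIMP2 had 0.92 and 0.51. AIMP2 shares 28.9% of its exon bases with EIF2AK1, EEF1E1 18.7% with a read-through transcript and AIMP1 11.6% with TBCK.

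The mitochondrial set held both the largest rises and the largest fall. At the FDR, 4 of 16 genes were higher and 3 lower (background 29.8% and 32.8% of all genes). By the full rule 18.8% of the set was called (background 42.4%). The median log2 fold change was 0.016 in a range from −2.08 to 3.02. SARS2 (ENSG00000104835, chromosome 19, 38915266 to 38930896, minus strand, 14 merged exon blocks) rose most. Its counts were 58 and 49 with vehicle against 195 and 93 with CPI-455, or 2.49 ± 0.355 and 20.2 ± 2.47 CPM, with a log2 fold change of 3.02 ± 0.28 (FDR 1.51e-05). The CPI-455 libraries had more fragments on it although they were the shallower ones.

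SARS2 shares 57.0% of its exon bases with other genes, so its counts come from the remaining part. Those genes are MRPS12, a mitochondrial ribosomal protein read from the opposite strand, and ENSG00000269547, which had 0 counts in all 4 libraries. MRPS12 had 836 and 839 counts with vehicle against 194 and 121 with CPI-455 (log2 fold change −0.77, FDR 0.00231). Per unshared kilobase the SARS2 level was 1.79 with vehicle against 14.5 RPKM with CPI-455. The part of the overlap in the SARS2 change was not tested.

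HARS2, the mitochondrial histidine enzyme (ENSG00000112855, chromosome 5, 140691426 to 140699291, plus strand, 12 merged exon blocks), had 455 and 435 counts with vehicle against 780 and 506 with CPI-455. That is 20.7 ± 1.15 and 94.0 ± 8.92 CPM, a log2 fold change of 2.18 ± 0.14 (FDR 2.69e-06). Both CPI-455 libraries were above both vehicle libraries also before scaling for depth. HARS2 lies head to head with HARS1, and in RefSeq 84 bases lie between their start sites, at 140691455 and 140691370. HARS1 had 1790 and 1744 counts with vehicle against 909 and 448 with CPI-455, or 82.3 ± 3.46 and 95.5 ± 9.47 CPM.

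Both ends of the stretch between these start sites carry the letters CCGGAAG, the core bound by ETS family factors, read on either strand. They are shown because a pair of genes with very different changes share them. The stretches are written on the HARS2 strand with the matching letters in capitals.
HARS1 end, chr5:140691363-140691389, plus strand: gcaaggatgaCTTCCGGctatcgagtc
HARS2 end, chr5:140691437-140691463, plus strand: ccggctcctcCCGGAAGtgccgaagct
CCGGAAG was in the windows of 9 of 16 cytosolic and 7 of 14 mitochondrial synthetase genes, and in 12.2% of all genes with a window (10.3% of windows). The called genes CARS1, HARS2, SARS2 and PARS2 each held it. The other synthetase genes that held it had log2 fold changes from −0.75 (WARS1) to 0.71 (SARS1), with TARS1 at 0.031. A link between these letters and the changes was not tested. The letters CACGTG, the E-box, were in 1 of 16 and 3 of 14, against 8.77% of all genes with a window (7.26% of windows).

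HARS2 shares 21.8% of its exon bases with HARS1 and ZMAT2, and HARS1 shares 18.3% of its own. ZMAT2, downstream of HARS2, had a log2 fold change of −0.076 (FDR 0.618). The part of the shared bases in the HARS2 change was not tested.

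PARS2, the mitochondrial proline enzyme (ENSG00000162396, chromosome 1, 54756898 to 54764514, minus strand, 2 merged exon blocks), fell most. Its counts were 656 and 783 with vehicle against 60 and 48 with CPI-455, or 33.5 ± 3.39 and 8.13 ± 1.96 CPM. The log2 fold change was −2.08 ± 0.23 (FDR 4.44e-05), so both CPI-455 libraries lay well below both vehicle libraries. PARS2 shares no exon base with another gene.

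**Figure D4:**
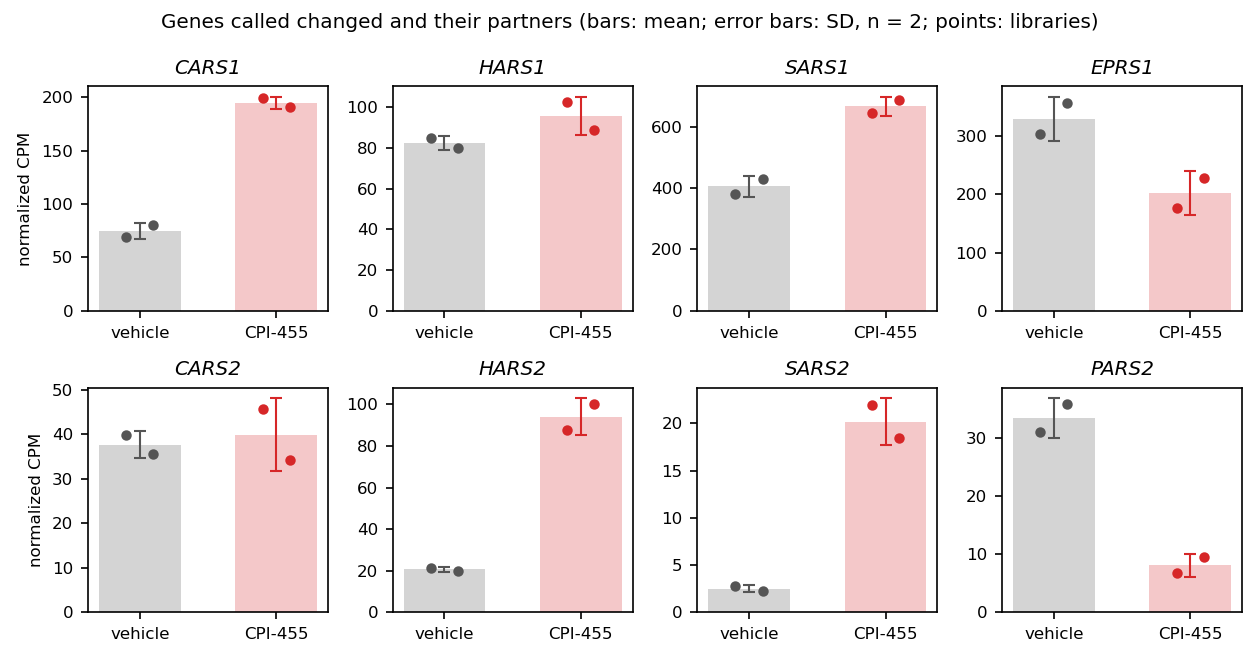
Normalized CPM of the 4 called genes and of the enzyme for the same amino acid in the other compartment, with bars for the mean, error bars for the SD (n = 2) and points for libraries, each axis starting at 0. HARS2 and SARS2 rise from 20.7 to 94.0 and from 2.49 to 20.2 CPM, while HARS1 lies between 79.9 and 102 CPM.

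IARS2 and LARS2, the mitochondrial isoleucine and leucine enzymes, were lower at the FDR and just short of 2-fold. IARS2 had 3738 and 3876 counts with vehicle against 831 and 470 with CPI-455, or 177 ± 0.357 and 93.3 ± 0.180 CPM (−0.93 ± 0.11, FDR 8.31e-05). LARS2 had 1115 and 1249 counts and then 256 and 148, or 55.0 ± 3.11 and 29.1 ± 0.395 CPM (−0.92 ± 0.15, FDR 4.79e-04). Scaling by library totals alone took both past 2-fold, each to −1.11. With the length and GC trend removed the changes were −0.50 and −0.63, still under the FDR. Neither gene shares exon bases with another.

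EARS2, the glutamate enzyme that also starts glutamine charging in mitochondria, had 530 and 530 counts with vehicle against 382 and 157 with CPI-455 (0.60 ± 0.19, FDR 0.0184). VARS2, the valine enzyme, had 3559 and 3017 counts and then 2260 and 937 (0.53 ± 0.16, FDR 0.0187). VARS2 shares 22.0% of its exon bases with GTF2H4, which had 34 and 31 counts with vehicle against 173 and 99 with CPI-455 (3.68, FDR 6.18e-06), and the part of this overlap was not tested. EARS2 and VARS2 both lost the FDR without vehicle replicate 2, and EARS2 also without vehicle replicate 1 or CPI-455 replicate 1. Both lost it with library totals alone (FDR 0.0822 and 0.104), and EARS2 with no filter on low counts (0.0777).

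The other 9 mitochondrial genes did not pass the FDR in the main fit. Their log2 fold changes ran from −0.56 (FARS2, phenylalanine; 242 and 233 counts with vehicle, 72 and 34 with CPI-455; FDR 0.0842) to 0.29 (AARS2, alanine). FARS2 was lower at the FDR with library totals (−0.75, FDR 0.0296) and with the length and GC trend removed (−0.70, FDR 0.0367). It did not pass with DESeq2 (FDR 0.246). AARS2 was higher at the FDR with upper-quartile scaling (0.46, FDR 0.0315). For WARS2 and YARS2 the CPI-455 libraries stood on both sides of the vehicle libraries: WARS2 (485 and 598 counts, then 183 and 181) was at 23.0 and 27.4 CPM with vehicle and at 20.6 and 35.9 CPM with CPI-455, and YARS2 (575 and 608 counts, then 160 and 154) at 27.2 and 27.8 CPM and then 18.0 and 30.5 CPM. NARS2, CARS2, RARS2, TARS2 and MARS2 had −0.097, 0.098, 0.17, −0.066 and −0.27. TARS2, for threonine, had 2338 and 2532 counts with vehicle against 1157 and 427 with CPI-455. For TARS2 and CARS2 too, the CPI-455 libraries stood on both sides of the vehicle libraries. TARS2 was at 111 and 116 CPM with vehicle and at 130 and 84.7 CPM with CPI-455. CARS2 was at 39.8 and 35.4 CPM and then 45.7 and 34.1 CPM.

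For 13 amino acids the list holds a gene for each compartment. The cytosolic log2 fold change was above the mitochondrial in 8 of the 13 and below it in 5, with a median difference of 0.22. The sign was the same in 9 pairs and differed in 4 (methionine, threonine, tryptophan and tyrosine). Both genes passed the FDR in 3 pairs in the main fit, with the same direction in each: isoleucine lower, and valine and serine higher. Of all genes tested, 62.6% passed the FDR, 29.8% higher and 32.8% lower, so 3 of 13 pairs is not read as agreement between the compartments. The isoleucine and valine pairs did not hold in every fit. IARS1 did not pass with the length and GC trend removed (0.041, FDR 0.772), nor VARS2 with library totals alone (FDR 0.104). The signs of TARS1, TARS2, WARS2 and YARS2 changed in some alternative fits.

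The ratio of cytosolic to mitochondrial level, in RPKM within a library, gives the balance directly. With vehicle the cytosolic gene was the higher in 12 of 13 pairs, the exception being valine, and with CPI-455 in 11. The pair that turned was histidine, where the mean ratio of HARS1 to HARS2 went from 1.60 to 0.410. For serine the SARS1 to SARS2 ratio fell from 137 to 27.9, on total exon length. SARS2 shares 57.0% of its exon bases and SARS1 none, so both ratios are lower on unshared length. Per unshared kilobase SARS1 stood at 106 RPKM with vehicle and 173 RPKM with CPI-455, and SARS2 at 1.79 and 14.5 RPKM. In the opposite direction, the ratio went from 2.07 to 5.14 for CARS1 to CARS2 and from 3.66 to 8.59 for MARS1 to MARS2. MARS2 had 536 and 501 counts with vehicle against 169 and 107 with CPI-455, and CARS2 had 840 and 774 and then 406 and 172, neither passing the FDR. For phenylalanine, whose cytosolic enzyme has a pair of subunits, FARSA and FARSB stood at 0.27 and 0.63 and FARS2 at −0.56.

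**Figure D5:**
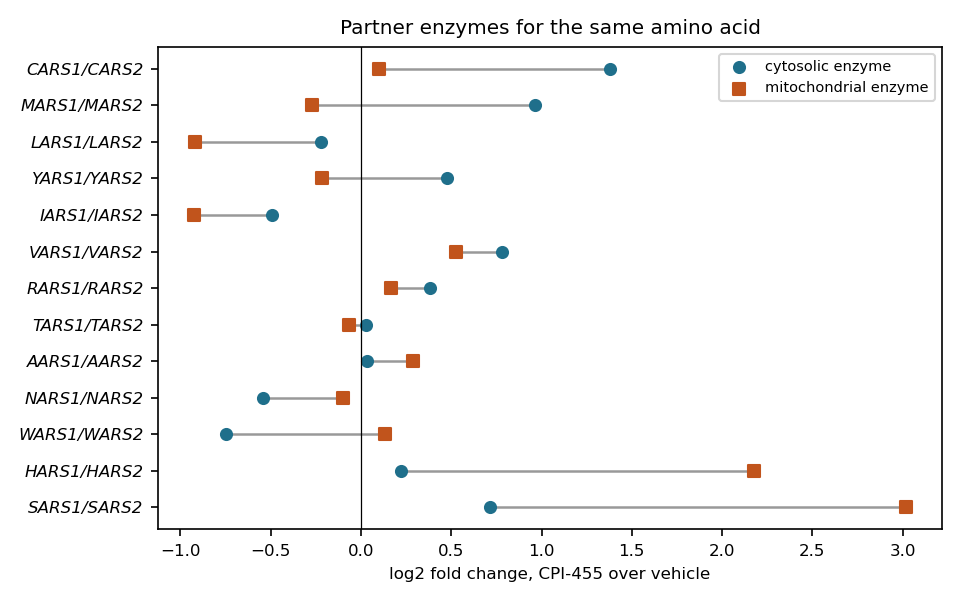
Log2 fold change (CPI-455 over vehicle) of the cytosolic (circles) and mitochondrial (squares) enzyme for each of 13 amino acids, joined by a line and ordered by their difference. The longest lines are those of SARS1/SARS2 and HARS1/HARS2, with the mitochondrial gene at 3.02 and 2.18, and of CARS1/CARS2 and MARS1/MARS2, with the cytosolic gene at 1.38 and 0.97.

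Synthetases fall into a pair of unrelated structural classes. Of the 18 class I genes, 8 were higher and 4 lower at the FDR and 1 was called, with a median log2 fold change of 0.15. Of the 16 class II genes, 4 were higher and 2 lower at the FDR and 3 were called (18.8%), with a median of 0.084. Of all genes tested, 42.4% were called, and 29.8% were higher and 32.8% lower at the FDR. EPRS1 holds a domain of each class and was left out. The called genes HARS2, SARS2 and PARS2 are class II and all mitochondrial, and CARS1 is class I and cytosolic.

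The 7 cytosolic genes with the amino acid response letters shown above did not share a direction in the main fit. CARS1 and MARS1 were higher and IARS1 and NARS1 lower at the FDR, AARS1, TARS1 and GARS1 did not pass, and their median log2 fold change was 0.034 with a range from −0.54 to 1.38. The 9 cytosolic genes whose windows lacked the letters had a median of 0.27 and a range from −0.75 to 0.76. At the FDR, 4 of them were higher and 2 lower, against 29.8% and 32.8% of all genes. With the length and GC trend removed, CARS1 (1.60), MARS1 (1.30), GARS1 (0.50) and TARS1 (0.50) were higher at the FDR. In that fit IARS1 (0.041), NARS1 (−0.12) and AARS1 (0.21) did not pass. Over the whole cytosolic set, 12 genes were higher and 1 lower at the FDR in it. The median over all genes in that fit was 0.082, against −0.040 in the main fit. By the full rule 3774 of its 17566 genes were called higher and 3024 lower.

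Genes of the amino acid response also moved in both directions. ATF4 itself rose at the FDR (663 ± 12.2 to 1169 ± 159 CPM; 0.82 ± 0.12, FDR 2.71e-04). In the list of 19 ATF4-linked genes, which includes ATF4, 11 were called, 2 higher and 9 lower, a called share of 57.9% against 42.4% of all genes (21% higher, 21.3% lower). At the FDR 4 were higher and 12 lower, against 29.8% and 32.8% of all genes, and the median log2 fold change was −0.85. ASNS, which makes asparagine, rose from 238 ± 24.4 to 596 ± 24.5 CPM (1.33), and DDIT3 had 3.13. CHAC1, which degrades glutathione, fell from 636 and 594 counts to 14 and 18 (−3.60), and SESN2, a leucine sensor, from 9532 and 9701 to 684 and 396 (−2.53). TRIB3, a pseudokinase, and SLC7A5, which imports large neutral amino acids, had −2.17 and −2.03. Of the sensors of uncharged tRNA, EIF2AK4, which encodes GCN2, had −0.081 (FDR 0.586). Its partner GCN1 was lower at the FDR (−0.40, FDR 0.00964).

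Other genes of tRNA charging are given for comparison. None of the 4 mitochondrial charging partners passed the FDR (background 62.6% of all genes). QRSL1 and GATC, parts of the enzyme that turns glutamate on its tRNA into glutamine, had 0.19 and −0.26, and MTFMT, which formylates the initiator, had 0.30. In selenocysteine tRNA synthesis, 2 of 3 genes were called lower (background 21.3% of all genes). SEPHS2, which makes the selenium donor, went from 3664 and 4027 counts to 130 and 110 (−3.33 ± 0.18, FDR 1.02e-06), and SEPSECS, the enzyme of the last step, from 475 and 525 to 78 and 52 (−1.30). Of 3 editing genes, AARSD1, which clears mischarged alanine tRNA, went from 92 and 73 counts to 299 and 192 (3.21, FDR 3.83e-06), with 34.2% of its exon bases shared with a read-through transcript. DTD2 was lower at the FDR (−0.80, FDR 0.0157), and DTD1 had 0.096. Of 78 mitochondrial ribosomal protein genes, 17 were called higher and 3 lower (25.6% in all, against 42.4% of all genes, and 21% and 21.3% by direction), with a median log2 fold change of 0.41.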

How the data were processed

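RNA-seq of 4 LNCaP libraries was analysed, 2 per group, grouped by their titles. The deposited files hold unnormalized fragment counts for each gene, which the authors made with featureCounts v1.5.0-p1 on GRCh38 with the Ensembl annotation, after adapter trimming with Trim Galore and alignment with STAR. Per the file headers, strand was not used and fragments on several genes were left out, so overlapping genes are measured on their unshared exons. How RNA was selected for the libraries is not given in the sources used here. The labels and the paper's methods give different final DMSO concentrations.

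Counts were fitted over all genes with edgeR 4.0.16 in R 4.3.3 (TMM, filterByExpr with a minimum count of 10, glmQLFit and glmQLFTest, no covariates). TMM factors were 1.08 and 1.06 for the vehicle libraries, 0.936 for each CPI-455 library. A call needed a Benjamini-Hochberg FDR below 0.05 and at least 2-fold, as in the study, whose volcano plot has the opposite sign. RPKM uses the merged exon length. Symbols were matched for 56558 of 60675 genes. SE are from the fitted model. Promoter windows are from RefSeq, and LARS1, VARS1, YARS1, AARS2 and VARS2 had none. The script was tested on simulated counts.

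The members and lists were chosen with earlier results of these data known. The paper's lists of genes were not used. Every synthetase could be named. Counts in every library are given for called genes, the 3 largest changes in each direction per compartment, pairs of opposite direction and overlapping pairs. Alternatives were other normalizations (RLE, upper quartile, library totals), other filters, DESeq2 1.42.0, the likelihood-ratio test, glmTreat, a replicate block, a smooth fit (mgcv 1.9.3) taking out exon length and GC, and leaving out each library. Libraries of 5401588 to 20690819 fragments set the precision.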

Additional observations from a re-analysis of the deposited data

How the results depend on the processing

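HARS2 and SARS2 called higher, CARS1 called higher and PARS2 called lower held under every alternative that was run, as did the count of 0 cytosolic genes called lower. In that last count edgeR gave 4 lower at the FDR and DESeq2 also called 0. The number of cytosolic genes called higher was 2 with upper-quartile normalization, 2 with at least 10 counts in every library, 2 with the length and GC trend removed (MARS1 added) and 3 with that and the replicate block (FARSB added, at 1.00). It was 1 to 1 when a library was left out. The number of mitochondrial genes called lower was 3 with library totals only and 3 with no filter (IARS2 and LARS2 added), and 1 to 2 when a library was left out, the 2 being without vehicle replicate 1 (LARS2 added).

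The median log2 fold change of cytosolic genes was 0.39 with upper-quartile normalization, 0.029 with library totals, 0.064 with no filter, 0.50 with the trend removed and 0.50 with block and trend, and 0.14 to 0.22 without a library. That of mitochondrial genes was 0.19, −0.17, −0.14, 0.20 and 0.20 in the same order, and −0.061 to −0.036 without a library. The median over all genes went from −0.040 to 0.14 with upper quartile and −0.23 with totals, and the cytosolic median was 0.26 above it with TMM, RLE, upper quartile and totals. With no filter it was −0.41, and the cytosolic median was 0.47 above it. The cytosolic median was above that of all genes by 0.42 with the trend removed and 0.44 with block and trend. Without a library it was above by 0.15 to 0.32. The partner difference was 0.35 with the trend removed, 0.36 with block and trend, and 0.090 to 0.40 without a library (0.090 without vehicle replicate 1, 0.40 without vehicle replicate 2).

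Signs turned in 12 genes, none of them called. With library totals and with no filter, AARS1 had −0.16 and −0.12, TARS1 −0.16 and −0.12, GARS1 −0.054 and −0.019, CARS2 −0.092 and −0.058, and WARS2 −0.052 and −0.017, and RARS2 had −0.022 with totals. With the trend removed and with block and trend, IARS1 had 0.041 and 0.044, LARS1 0.37 and 0.37, KARS1 0.21 and 0.22, NARS2 0.20 and 0.20, and TARS2 0.15 and 0.13. With upper quartile KARS1 had 0.071, NARS2 0.079 and TARS2 0.11. Without a library, ranges were −0.075 to 0.10 for AARS1, −0.26 to 0.017 for KARS1, −0.12 to 0.12 for TARS1, −0.16 to 0.24 for CARS2, −0.44 to 0.16 for TARS2, −0.33 to 0.49 for WARS2 and −0.66 to 0.13 for YARS2. The cause of these shifts was not tested.

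Both groups carry replicate numbers 1 and 2. The differences between replicates 1 and 2 correlated at 0.0400 between the groups across 17600 genes, which are not independent. This value cannot show whether equal numbers mark a shared culture day, which no source states. With the replicate block, 4 synthetases and 7167 genes in all were called, the 4 and 7454 of the fit without it, and the medians were 0.21 for cytosolic and −0.0082 for mitochondrial genes, with a partner difference of 0.21. Across alternatives 4 to 6 of the 35 were called and 23.5% to 45.1% of all genes. Fits without a library assume that the lone library varies like the other group. The depth of 5401588 fragments in a CPI-455 library limits what can be seen for FARS2, SARS2 and PARS2, whose counts there were 34, 93 and 48.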
